A study of Mus musculus with 3 samples.

Results

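Poly(ADP-ribose) polymerases (PARPs) transfer ADP-ribose from NAD onto proteins and nucleic acids. A few members, among them Parp1 and Parp2, build chains of ADP-ribose at broken DNA, many others attach single units, and some are switched on by interferon. Dtx3l is not a PARP but a ubiquitin ligase of the deltex family that forms a complex with Parp9. The genes described here are Parp9, Parp10, Parp11, Parp12, Parp14 and Dtx3l, which are linked to interferon, with Parp1, Parp2 and Parp3, which act in DNA repair, and Parp8, a transferase about which little is known. These 10 genes were selected by symbol from the 44788 genes of the count table, with the difference between genotypes already known. Their differences between cKO and control are therefore given as a description and carry no test. All 10 were in the table, and all 10 passed the filter on low counts that left 15529 genes.

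RNA was sequenced from primary chondrocytes taken from knee joint cartilage of C57BL/6 mice. Cells of the genotype Col2a1-CreERT2;Kdm6bf/f gave the 2 libraries called cKO, and Kdm6bf/f cells gave the 1 control library, so both genotypes carry the floxed Kdm6b alleles and only cKO cells carry the recombinase. The Col2a1 promoter directs the recombinase to chondrocytes, and cells of both genotypes were given 4-hydroxytamoxifen, which activates it, at 1 µM for 48 h. Serum is listed at 10% for all 3 libraries. The comparison asks which transcripts differ in cells with a recombinase directed at Kdm6b, the gene of a histone H3 demethylase. No vehicle-treated cells and no cells with the recombinase but without floxed alleles are among the 3 libraries, so the recombinase and the loss of Kdm6b cannot be told apart.

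Column totals lay between 12489738 and 12636471 counts. Kdm6b had 1049 and 948 counts in the cKO libraries against 1289 in the control library (here and below the control is the value after "against"; log2 fold change -0.39 ± 0.14, SE), which did not pass the quasi-likelihood test of edgeR (adjusted p = 0.138), and which exons are floxed is not given in the sources used here. The cKO libraries differed by far more than counting noise (chi-square of 9.06 per gene over 16293 genes), and Xist, expressed from an inactive X chromosome, was counted 2 times in replicate 1 of cKO, 1 time in the control and 10081 times in replicate 2. Genes of the Y chromosome had 1723 counts in replicate 1, 1726 in the control and 49 in replicate 2. The labels do not name animals or cultures, but by these genes the cKO libraries were not made from the same cells. Of 9 chondrocyte markers, all had counts in each library and 8 fell in cKO by edgeR, where 1.90% of all tested genes were called lower. DESeq2 called 7 of them lower and limma-voom 9, against 1 in edgeR with 3 prior degrees of freedom and 0 without the low-count filter. Their summed level was 15298 and 14349 CPM (counts scaled to the TMM-adjusted library size) in cKO against 25736 in the control. Fibroblast and osteoblast markers summed to 12658, 11336 and 12739 CPM over 8 genes, nearly all of it from the collagens Col1a1 and Col3a1. Of the osteoblast genes, Bglap had 1, 4 and 1 counts, Dmp1 had 3, 3 and 1, and Sp7 and Alpl lay between 3.44 and 10.1 CPM. Of 16 macrophage and leukocyte markers, 7 had 0 counts in all 3 libraries, among them Emr1 (F4/80), Itgam, Tyrobp, Spi1 and Cd3e. Csf1r had 33 and 28 counts against 8 (edgeR adjusted p = 0.0835) and Cd68 had 59 and 57 against 32 (0.293), so both were above the control in each cKO library. The part of such cells in the results was not tested. The 16 summed to 13.6 CPM in each cKO library and 8.54 CPM in the control, and of the 4 that could be tested 0 passed with edgeR, with DESeq2 or with limma-voom (unadjusted p was under 0.05 for 2 of them in edgeR). Over all 15529 genes tested, edgeR called 3.01% higher, and 1296 higher and 1135 lower genes had an unadjusted p under 0.05. In bulk RNA, fewer expressing cells and less RNA per cell cannot be told apart.

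Promoter sequence was not used to choose the genes, and 3 stretches are shown: 2 that hold motif matches and 1 before Dtx3l, which lies within Parp9 but outside its annotated exons. RefSeq windows (GRCm38.p6) run from 250 bases before to 50 bases after a gene's start, and 7 of the 10 genes had at least 1, for 8 windows in all (Parp9, Parp10 and Parp14 had no entry). The core shared by interferon-stimulated response elements was searched as GAAANNGAAA on either strand, and a STAT site as TTCNNNGAA, which reads the same on both strands. The first stretch lies before the upstream start of Parp11 (chr6:127446590-127446839, plus strand), the second before Parp4, a PARP outside the 10 genes (chr14:56575426-56575618, plus strand), and the third before the Dtx3l start (chr16:35939207-35939277, minus strand). Each is the longest part of the 250 upstream bases that lies in no annotated exon, written along the gene's own strand from 5′ to 3′, with motif matches in capitals.
Parp11: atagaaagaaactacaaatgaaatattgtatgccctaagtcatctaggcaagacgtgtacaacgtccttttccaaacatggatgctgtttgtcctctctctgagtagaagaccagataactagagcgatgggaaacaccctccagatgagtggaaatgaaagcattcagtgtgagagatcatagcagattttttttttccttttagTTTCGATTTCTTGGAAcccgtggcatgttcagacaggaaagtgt
Parp4: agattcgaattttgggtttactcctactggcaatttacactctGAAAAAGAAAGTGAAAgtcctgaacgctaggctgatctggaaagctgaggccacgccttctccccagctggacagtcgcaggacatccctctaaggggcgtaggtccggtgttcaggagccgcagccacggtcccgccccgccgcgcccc
Dtx3l: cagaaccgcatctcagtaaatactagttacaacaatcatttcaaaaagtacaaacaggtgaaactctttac

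The upstream window of Parp11 was the only 1 of the 8 with either motif. Its response-element core lies on the opposite strand at positions -44 to -35 from the start (GAAATCGAAA), and its STAT site overlaps it at -37 to -29 (TTCTTGGAA), so the capitals run together. The window at the downstream start of Parp11 held neither motif, and gene-level counts do not show which start was used. Windows of Parp12 and Dtx3l held neither, and the same was true of Parp1, Parp2, Parp3 and Parp8. Windows of 6 PARPs other than those described here were also searched. Parp4 held overlapping cores at -150 to -141 and at -144 to -135. Parp16 held a STAT site across its start, at -4 to 4 (TTCAGAGAA), and its sequence is not shown. Windows of Parp6, Tiparp, Zc3hav1 and Tnks2 held neither motif. The counts of Parp4 and Parp16 are given with the other PARPs below. Over all 32851 windows of this length, 3.44% held the response-element core and 8.30% the STAT site. A match is a description of letters and shows no binding, and the absence of a match says only that these letters are not in this window.

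The 6 interferon-linked genes were each at least 2-fold higher in each cKO library than in the control, and none of the other 4 genes was. The same held for 2.41% of all 15529 genes, a share that is given for scale only because the genes were picked with this contrast known. Median log2 differences were 3.29 over the 6 genes and 0.18 over the other 4, against -0.01 over all genes tested. The smallest difference among the 6 was 1.65 and the largest among the other 4 was 0.39. All 10 genes were above the control in both cKO libraries, which was true of 36.6% of all genes.

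Parp14 carries several macrodomains, which bind ADP-ribose, together with a transferase domain, and is known as a cofactor of STAT6. Its level was 114 and 98.9 CPM in the cKO libraries (1425 and 1266 counts) and 3.87 CPM in the control (48 counts). Both cKO libraries lay far above the control, which had the fewest counts for Parp14 of all 10 genes. The ratio of cKO to control was 27.5, with an exact 95% binomial interval of 20.7 to 37.4. These intervals come from the summed cKO counts against the control counts and cover counting error only. The log2 difference, with a prior count of 2, was 4.73 ± 0.15 (SD, n = 2). Here and below, this SD is the spread between the 2 cKO libraries only. Both differences subtract the same control library, so the SD leaves out the error of the control.

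Parp9 also has macrodomains and was long held to lack transferase activity of its own. It had 118 and 121 CPM in the cKO libraries, with the control at 13.3 CPM, a ratio of 9.01 (95% interval 7.70 to 10.6). The mean log2 difference was 3.16 ± 0.02 (SD, n = 2). Its cKO libraries were nearly level, with replicate 2 at 1.02 times replicate 1 (0.954 to 1.10). Dtx3l, its ligase partner, had 88.1 and 82.1 CPM in the cKO libraries, with the control at 6.85 CPM, a ratio of 12.4 (9.99 to 15.6). For Dtx3l the mean log2 difference was 3.603 ± 0.071 (SD, n = 2). The intervals of Parp9 and Dtx3l overlap, which does not show that their ratios are equal; their balance within each library is given below.

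Parp10, a single-unit transferase, had 103 and 93.1 CPM in the cKO libraries, with the control at 9.03 CPM, a ratio of 10.9 (9.0 to 13.3). Parp12, which carries zinc fingers of an RNA-binding type, had 119 and 113 CPM in the cKO libraries, with the control at 16.3 CPM, a ratio of 7.12 (6.17 to 8.25). Parp11, a single-unit transferase with a WWE domain, had 51.0 and 48.0 CPM in the cKO libraries, with the control at 15.7 CPM. For Parp11 the ratio was 3.15 (2.71 to 3.68), the smallest of the 6. Mean log2 differences (SD, n = 2) were 3.42 ± 0.11 for Parp10, 2.82 ± 0.05 for Parp12 and 1.65 ± 0.06 for Parp11. In the order of the ratios, Parp14 stood above Dtx3l and Parp12 above Parp11 with intervals that do not overlap, while the neighbouring pairs among Dtx3l, Parp10, Parp9 and Parp12 had overlapping intervals.

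**Figure D1:**
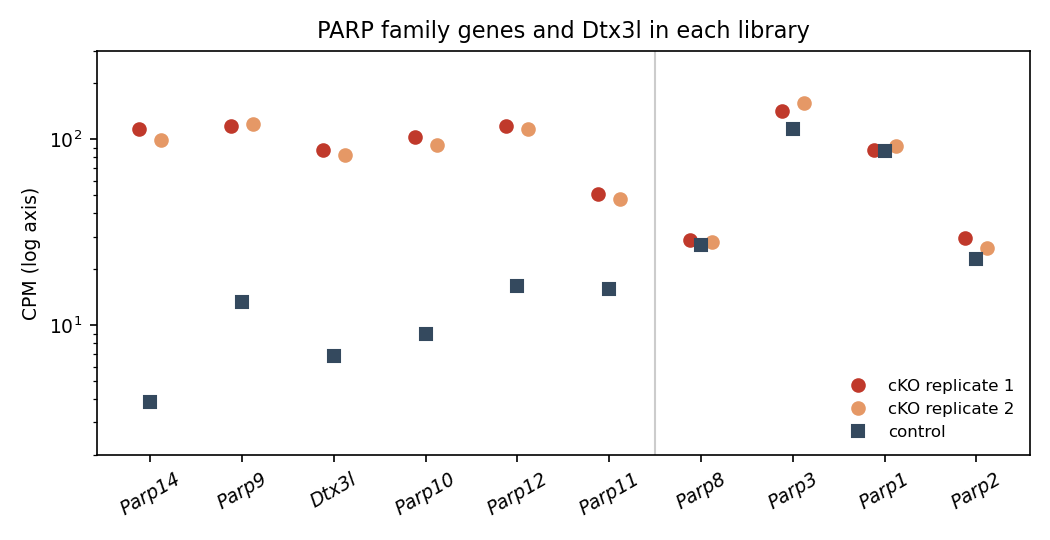
CPM on a log axis for each gene in each library, with circles for the 2 cKO libraries, squares for the control and a vertical line between the 6 interferon-linked genes and the other 4. Parp14 is at 3.87 CPM in the control and at 114 and 98.9 CPM in cKO, while Parp1 and Parp8 have their 3 values close together.

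Among the DNA-repair PARPs and Parp8, Parp1 and Parp8 were at similar levels in the 3 libraries. Parp2 and Parp3 were above the control in both cKO libraries, by less than 2-fold. Parp1, the main sensor of DNA strand breaks, had 88.2 and 92.6 CPM in the cKO libraries, with the control at 86.7 CPM, a ratio of 1.04 (95% interval 0.969 to 1.12). Parp2, its partner in single-strand break repair, had 29.5 and 26.1 CPM in the cKO libraries, with the control at 22.7 CPM, a ratio of 1.22 (1.06 to 1.41). Parp3, which acts at double-strand breaks, had 143 and 158 CPM in the cKO libraries, with the control at 114 CPM. Its ratio was 1.32 (1.24 to 1.40), so for Parp2 and Parp3 the counting interval lies above 1, but it leaves out the spread between libraries. Parp8 had 28.7 and 28.0 CPM in the cKO libraries, with the control at 27.1 CPM, a ratio of 1.05 (0.918 to 1.20). For Parp3 the cKO libraries themselves differed, with replicate 2 at 1.10 times replicate 1 (1.04 to 1.18).

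The cKO libraries differed little from each other across the 10 genes. Replicate 2 ranged from 0.865 to 1.10 times replicate 1, and for 7 genes the 95% interval of that ratio included 1. The 3 exceptions were Parp14, at 0.865 (0.801 to 0.933), Parp10, at 0.899 (0.830 to 0.974), and Parp3. Leaving out cKO replicate 1 or cKO replicate 2 moved the log2 difference of Parp14 by 0.10, the largest such move among the 10 genes. In replicate 1 alone, which is like the control in Xist and the Y-linked genes, the log2 differences of the 6 interferon-linked genes ran from 1.69 to 4.83.

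Levels of different genes were compared as CPM per kilobase of annotated exon. In the control, Parp3 was highest at 30.9 CPM per kb and Parp1 came next at 16.4, followed by Parp2 at 6.27. Parp14 was lowest, at 0.416 CPM per kb, below Dtx3l at 1.20 and Parp10 at 2.11. In both cKO libraries Parp3 was still highest, at 38.7 and 42.7 CPM per kb, but Parp12 (29.7 and 28.4), Parp9 (24.3 and 24.9) and Parp10 (24.2 and 21.8) came next. Parp9 and Parp10 were nearly level in cKO replicate 1. Parp1, at 16.7 and 17.5 CPM per kb, moved from rank 2 to rank 5, and Parp8 moved from rank 5 to rank 10 at 3.23 and 3.16. Exon lengths sum all annotated transcripts, so isoforms that are shorter than the gene model have their level understated.

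Over 16 PARP genes, the 9 described here and the other 7 of the family, the summed level was 111 CPM per kb in the control and 235 and 228 CPM per kb in cKO. The 5 interferon-linked PARPs made up 10.4% of that sum in the control and 41.6% and 40.6% in cKO. Parp3 took 27.7% in the control and 16.5% and 18.8% in cKO, although its own level was not lower. Without these 5 genes and Zc3hav1, the sum of the remaining PARPs was 86.3 CPM per kb in the control and 102 CPM per kb in each cKO library.

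**Figure D2:**
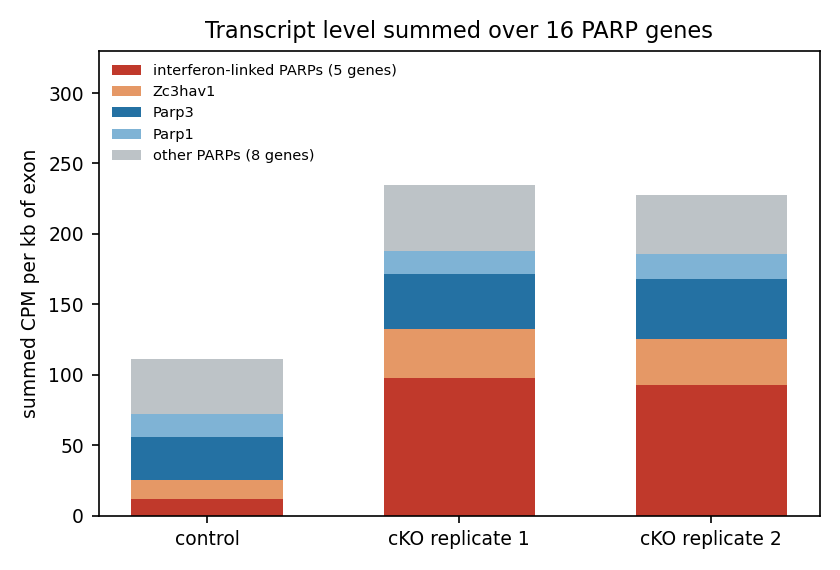
Stacked bars, starting at 0, of CPM per kb of exon summed over 16 PARP genes in each library, with colours for the 5 interferon-linked PARPs, Zc3hav1, Parp3, Parp1 and the other 8. The bars reach 111 in the control and 235 and 228 in cKO, and most of the added height is in the interferon-linked part, at 11.6 against 97.8 and 92.5.

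The balance within the Parp9, Dtx3l and Parp14 group differed between libraries. Per kilobase, Parp9 was 2.28 times Dtx3l in the control (exact 95% interval 1.75 to 3.0) and 1.58 (1.46 to 1.71) and 1.74 (1.60 to 1.88) times Dtx3l in cKO replicates 1 and 2. The control interval overlaps that of cKO replicate 2 but not that of cKO replicate 1. Parp14 was 0.152 times Parp9 in the control (0.108 to 0.211) and 0.506 (0.470 to 0.545) and 0.427 (0.396 to 0.460) times Parp9 in cKO. Against Dtx3l, Parp14 was at 0.347 in the control (0.239 to 0.501) and at 0.799 (0.738 to 0.865) and 0.741 (0.682 to 0.805) in cKO. For Parp14 against either gene both cKO libraries lay outside the control's interval. These intervals cover counting error within 1 library and not the spread between libraries. For Parp14 against Parp9, the intervals of the 2 cKO libraries do not overlap each other.

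These 3 genes lie together on chromosome 16 (GRCm38, GENCODE M21). Parp14 (ENSMUSG00000034422.14, 35832874 to 35871544, minus strand) is separated by 54.97 kb from Dtx3l (ENSMUSG00000049502.17, 35926511 to 35939151, minus strand), and Parp9 (ENSMUSG00000022906.15, 35938470 to 35972605, plus strand) starts within the first part of Dtx3l on the other strand. The exons of Parp9 and Dtx3l share 458 bases, which is 9.40% of the exon length of Parp9 and 8.00% of that of Dtx3l. The use of strand in counting is not given in the sources used here, so reads from the shared bases cannot be told apart. Among the 6 other genes tested within 200 kb of the group, 0 passed with edgeR, where 0 also had an unadjusted p below 0.05, and 0 passed with DESeq2 or with limma-voom. Over all tested genes edgeR called 3.01% higher and 1.90% lower. Kpna1, which encodes a nuclear import receptor and lies next to Parp9, had 681 and 708 counts in the cKO libraries against 596 (log2 fold change 0.20 ± 0.15 SE, edgeR adjusted p = 0.602). Hspbap1, on the other side next to Parp14, had 95 and 102 counts against 86. Dirc2, Wdr5b, Fam162a and Ccdc58 had log2 fold changes of -0.30, -0.23, 0.00 and -0.05.

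**Figure D3:**
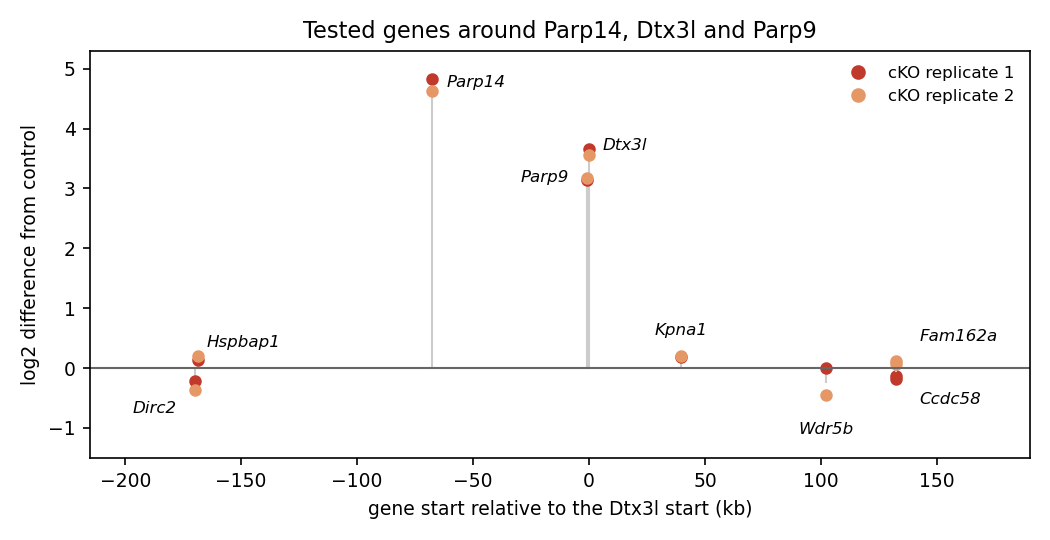
Log2 difference of each cKO library from the control for the 9 genes tested around the group, against the distance of the gene's start from the Dtx3l start in kb. Parp14, Dtx3l and Parp9 stand between 3.14 and 4.83, while the 6 other genes lie far lower.

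The other genes lie apart from one another: Parp10 on chromosome 15 (76231174 to 76243441), Parp11 and Parp12 far apart on chromosome 6 (127446840 to 127494261 and 39086410 to 39118349), Parp1 on chromosome 1 (180568924 to 180601254), Parp2 on chromosome 14 (50807841 to 50821301), Parp3 on chromosome 9 (106470322 to 106476949) and Parp8 on chromosome 13 (116854820 to 117025537). Across all 10 genes, the nearest tested gene on each side gave 16 genes that are not among the 10, of which 3 rose and 1 fell in edgeR, against 3.01% and 1.90% of all genes called higher and lower. Genes on both sides of Parp10 rose. Grina, a transmembrane protein gene, had 1872 and 1891 counts in the cKO libraries against 1079 (log2 fold change 0.78 ± 0.14 SE, adjusted p = 0.000953 in edgeR), and Plec, which encodes the cytoskeletal linker plectin, had 14313 and 13776 against 9299 (0.57 ± 0.16, adjusted p = 0.0459). Plec shares 205 exon bases with Parp10 on the same strand, 4.80% of the exon length of Parp10, so some Parp10 counts could belong to Plec; its part in the Parp10 values was not tested. The nearest tested gene is not always adjacent. Tspan11, the nearest after Parp11, starts only at 127887589, and the pseudogene Gm6035, the nearest before Parp8, lies far off at 115528556 to 115529772. Tspan11 had 72 and 73 counts against 28 (adjusted p = 0.0429 in edgeR). Gm6035 fell by 0.72 on the log2 scale (adjusted p = 0.0113 in edgeR). Neither Tspan11 nor Gm6035 passed in DESeq2 (adjusted p = 0.673 and 0.349), while Grina and Plec did. Tspan11 passed under none of the alternatives, with adjusted p from 0.0547 to 0.673, and for Gm6035 the range was 0.00744 to 0.548. Over the 5 alternative analyses, adjusted p ranged from 0.000583 to 0.475 for Grina and from 0.0145 to 0.560 for Plec, and neither passed without the low-count filter or with prior degrees of freedom of 3, nor did Plec with RLE size factors (0.0634).

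The other 7 measured PARP genes were tested, since they were not among the 10. Of these, 1 rose, 0 fell and 6 did not pass in edgeR, which called 3.01% of all tested genes higher and 1.90% lower. Zc3hav1 encodes the zinc-finger antiviral protein (PARP13), which binds viral RNA and lacks transferase activity. It had 2830 and 2741 counts in the cKO libraries against 1097, or 227, 214 and 88.4 CPM, and rose by 1.32 ± 0.14 on the log2 scale (SE, adjusted p = 1.14e-06 in edgeR). Both cKO libraries were above the control, and the call held in DESeq2 and limma-voom but not without the low-count filter (adjusted p = 0.249) or with 3 prior degrees of freedom (0.0819), the smallest adjusted p over the alternatives being 4.05e-10.

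The 6 that did not pass included Tiparp, the dioxin-inducible PARP, with 304 and 365 counts in the cKO libraries against 277 (adjusted p = 0.598 in edgeR). The tankyrases Tnks and Tnks2, which act on axin in Wnt signalling, had log2 fold changes of 0.24 and 0.09. Parp4, a component of vault particles and the gene whose promoter window held the overlapping response-element cores, had 562 and 440 counts in the cKO libraries against 417. Its log2 fold change was 0.24 ± 0.18 (SE, adjusted p = 0.584 in edgeR), and 1 cKO library lay close to the control. Parp6 had 311 and 294 counts against 210 (log2 fold change 0.50, adjusted p = 0.183), and Parp16, which sits in the endoplasmic reticulum membrane, had only 40 and 20 against 52. Parp16, whose promoter window held a STAT site, was the only 1 of the 7 below the control in both cKO libraries. The median log2 fold change of the 7 was 0.24, against 0.00 over all genes tested.

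**Figure D4:**
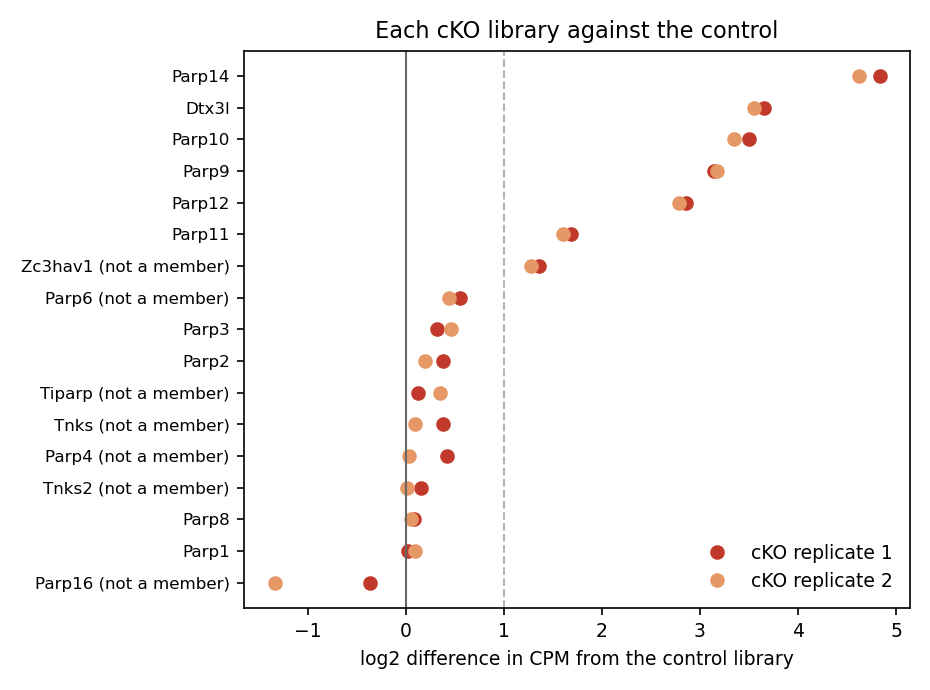
Log2 difference in CPM of each cKO library from the control (prior count of 2) for the 10 genes and the other 7 PARPs, sorted by the mean, with a dashed line at 2-fold. Zc3hav1, at 1.36 and 1.27, is the only gene outside the 10 beyond that line in both libraries, and Parp16, at -0.37 and -1.34, is the lowest.

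The wider ADP-ribose pathway was described with lists of related genes, chosen with earlier results of these data known. Of 13 tested genes that remove or read ADP-ribose, 1 rose and 0 fell (median -0.13). Over all tested genes edgeR called 3.01% higher and 1.90% lower, and counts in lists this small are a description only. Parg, which cuts the chains, had 404 and 355 counts in the cKO libraries against 357. Enpp1, a pyrophosphatase that can also cleave ADP-ribose, had 1390 and 1278 counts against 908 and rose by 0.53 ± 0.14 (SE, adjusted p = 0.0338 in edgeR). Hpf1, the factor that directs Parp1 and Parp2 to serine, appears in the table under an older name and had 166 and 206 counts against 207. Oard1 had 71 and 84 counts against 133 (log2 fold change -0.80) and Macrod1 had 165 and 140 against 213 (-0.51). Neither passed in edgeR (adjusted p = 0.109 and 0.263). Enpp1, Oard1 and Macrod1 were the 3 of the 13 genes with an unadjusted p below 0.05 in edgeR. Of 18 DNA-repair partners of the PARPs, 0 passed with edgeR, with DESeq2 or with limma-voom (median log2 fold change 0.01). In edgeR the unadjusted p of 3 was below 0.05, as it was for 1296 higher and 1135 lower genes of all 15529 tested. The partner with the smallest p was Lig1, a DNA ligase, at 0.47 ± 0.15 (adjusted p = 0.0757 in edgeR).

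Genes around the common substrate NAD mostly did not pass in edgeR, which called 3.01% of all tested genes higher and 1.90% lower. Of 9 tested genes of NAD supply, 1 rose and 0 fell (median 0.21). This was Nampt, the rate-limiting enzyme of NAD salvage, with 1419 and 1573 counts in the cKO libraries against 951 (log2 fold change 0.63 ± 0.14 SE, adjusted p = 0.00848 in edgeR). Of 9 tested NAD consumers outside the PARPs, 1 rose and 0 fell (median -0.24). Bst1, a surface enzyme that cleaves NAD, had 45 and 47 counts in the cKO libraries against 10, and rose by 2.16 ± 0.52 (adjusted p = 0.0150 in edgeR). In DESeq2 Enpp1, Nampt and Bst1 did not pass (adjusted p = 0.324, 0.0858 and 0.359), and over the alternatives adjusted p ranged from 0.0302 to 0.560 for Enpp1, from 0.00708 to 0.560 for Nampt and from 0.0223 to 0.550 for Bst1.

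None of the other deltex ligases that could be tested passed in edgeR, where 3.01% of all tested genes were called higher and 1.90% lower. Dtx2 had 281 and 394 counts in the cKO libraries against 245 (log2 fold change 0.43 ± 0.20 SE, adjusted p = 0.305 in edgeR). Dtx3 had 624 and 667 against 769 (-0.28 ± 0.15), and Dtx4 had 68 and 59 against 79 (-0.34 ± 0.32). Dtx1 had 3, 7 and 3 counts and was not tested. DESeq2 and limma-voom also called 0 of the 3. In edgeR the unadjusted p of 1 was below 0.05, as it was for 1296 higher and 1135 lower genes of all 15529 tested. Of 6 ADP-ribosyltransferases of the cell surface and secreted kind (Art genes), 4 had 0 counts in all 3 libraries and the others at most 2.

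Type I interferon signals through the receptor chains Ifnar1 and Ifnar2, the kinases Jak1 and Tyk2, and a transcription factor complex that contains Stat2 and Irf9. Stat2 had 4221 and 4055 counts in the cKO libraries against 451, and rose by 3.17 ± 0.16 on the log2 scale (SE, adjusted p = 3.23e-12 in edgeR). Irf9 had 1553 and 1662 counts against 404, and rose by 1.97 ± 0.15 (adjusted p = 4.52e-09 in edgeR). Without the low-count filter neither passed (adjusted p = 0.116 for Stat2 and 0.138 for Irf9), while the other 4 alternatives kept both calls, with adjusted p from 8.02e-59 to 0.0180 for Stat2 and 6.79e-18 to 0.0321 for Irf9. Ifnar1, with 933 and 959 counts against 932, and Ifnar2, with 372 and 409 against 404, had log2 fold changes of 0.00 and -0.07, and Jak1 and Tyk2 had 0.22 and 0.34 and did not pass.

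The 5 genes whose pattern over the 3 libraries was most like that of Dtx3l were Gbp2, Irgm2, Ifih1, Irgm1 and Rnf213. Likeness was the Euclidean distance between log2 CPM values centred per gene, with genes kept at a mean of 5 CPM or more, and these distances ran from 0.07 to 0.13. Gbp2, the nearest, encodes a guanylate-binding GTPase and had 133 and 124 CPM in the cKO libraries, with the control at 9.83 CPM. Rnf213, a very large ubiquitin ligase, had 1578 and 1299 CPM against 121. Of the other 9 genes described here, Parp10 was next in line at rank 6 of 11338, Parp9 was at rank 19, Parp12 at 29, Parp14 at 54 and Parp11 at 100. Parp3, Parp2, Parp8 and Parp1 were at ranks 953, 1563, 4398 and 4554. Over 2 cKO libraries and 1 control this distance mostly follows the cKO to control ratio. That contrast was known when the genes were picked, so the ranks are a description only.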

How the data were processed

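The authors deposited whole-number read counts per gene symbol, 1 column per library, for 2 cKO libraries and 1 control. Per the labels' protocols, ribosomal RNA was depleted from RNA with an integrity number above 8, and sequencing used the Ion Proton. The submitters' processing notes list GRCm38 and GRCh37 with no role. Aligner, counter, annotation and strandedness: not given in the sources used here. Positions and exon lengths come from GENCODE M21 on GRCm38 (30936 of 44788 symbols matched exactly 1 gene).

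All genes were fitted together with edgeR 4.0.16 in R 4.3.3 (filterByExpr, TMM, quasi-likelihood F test, Benjamini-Hochberg adjustment over 15529 genes at 0.05). The procedure was also run on simulated counts. There every gene and library had the same dispersion, so that run cannot show how the real control varies. Only the cKO pair informs the spread (1 residual degree of freedom, with a prior of 19.9 estimated over genes), and the single control is taken to vary as much. SE was computed as |log2 fold change| over the root of F. CPM uses TMM-scaled library sizes. Exact 95% binomial (Clopper-Pearson) intervals used scipy 1.17.1. Alternatives were DESeq2 1.42.0, limma-voom (limma 3.58.1), RLE size factors, no low-count filter, prior degrees of freedom of 3, other prior counts, column totals and leaving out each cKO library. The members and lists were chosen with earlier results of these data known. Named were the 10 genes, all other measured PARP and deltex genes, and up to 4 called genes of each other list (otherwise the 1 of smallest p). Also named were called neighbours, all neighbours of the chromosome 16 group and the 5 genes nearest to Dtx3l in pattern. Parg, Hpf1, Oard1, Macrod1, the Art genes and the receptor and kinase genes were added for context after their values were seen. Protein sequences were not used here.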

Additional observations from a re-analysis of the deposited data

How the results depend on the processing

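The count of the 10 genes at least 2-fold higher in each cKO library was 6 under RLE size factors, column totals, and prior counts of 0.5 and 5. It was also 6 without either cKO library. There the count could not fall, because the rule already asks for the difference in each library. The median log2 difference of the 10 genes was 2.23, and between 2.22 and 2.24 under those scalings and prior counts, and it ranged from 2.19 to 2.27 when a cKO library was left out. The largest shift of any of the 10 genes was that of Parp14, to 4.62 or 4.83 without a cKO library and to 4.65 with a prior count of 5. Calls over all genes moved more. Against 467 genes called higher and 295 lower, DESeq2 called 227 and 83, and edgeR with prior degrees of freedom of 3 called 83 and 4. Without the low-count filter edgeR called 0 and 0 (1082 higher and 747 lower at an unadjusted p under 0.05). Limma-voom called 465 and 361. Among the related genes, 7 were called higher, against 4 in DESeq2, 3 with prior degrees of freedom of 3 and 0 without the filter (9 at an unadjusted p under 0.05), and the cause was not tested. None was called lower by edgeR under any setting run, by DESeq2 or by limma-voom. Of the related genes lower in cKO, 4 had an unadjusted p under 0.05 in edgeR, as did 1135 lower genes of all 15529 tested. Leaving out a cKO library leaves no residual degrees of freedom, so no calls were made there. No paired analysis was possible because the control has 1 library and carries no replicate number. The single control limits every ratio, with 48 counts for Parp14 and 85 for Dtx3l.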
